A study of Mus musculus with 6 samples.

Results

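The genes described here pattern the pharyngeal arches and the face: the distal-less homeobox genes Dlx1, Dlx2, Dlx5 and Dlx6, the ligand gene Edn1, the endothelin receptor genes Ednra and Ednrb, and the paired-type homeobox genes Alx1 and Prrx1. They were chosen by name, and a probe set counted as theirs where the platform annotation gave exactly 1 gene symbol. Under that rule 8 of the 9 genes had a probe set, 16 probe sets in all, among 18193 named genes on the array; Ednra was not analysed here. Prrx1 had 6 probe sets, Ednrb 3, Alx1 2, and the other genes 1 each.

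The samples were single mouse embryos at embryonic day 8.5, 3 of them wild type and 3 of them Tcof1+/- littermates, each on an array of its own (Affymetrix Mouse Genome 430 2.0). Tcof1 codes for treacle, which works in the nucleolus to make ribosomal RNA, and people with Treacher Collins syndrome, whose facial bones and jaw are underdeveloped, often carry a single working copy of it. The sources used here do not give the strain, the somite number or the design of the Tcof1 allele. The comparison asked whether genes of arch and facial patterning were expressed at other levels in embryos with a single working copy of Tcof1.

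Cranial neural crest cells leave the closing neural folds at about this stage and fill the pharyngeal arches with mesenchyme. In the arches, endothelin-1 from the epithelium and the core mesoderm acts on the type A receptor of crest cells and switches on Dlx5 and Dlx6, which give the lower jaw its identity through Hand2. Dlx1 and Dlx2 are expressed along the whole arch, and the nested pattern of Dlx genes sets upper against lower jaw. Ednrb is better known in the crest that forms pigment cells and gut neurons, Alx1 in the mesenchyme around the eye and nose, and Prrx1 in mesenchyme of the head and limbs.

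Homeodomain proteins such as those of the Dlx, Alx and Prrx families bind DNA sites with a TAAT core, so the DNA before the start of the member genes is shown with that core marked. The RefSeq table of build GRCm38.p6 held a promoter for 6 of the 9 genes. The 4 printed here are those whose transcripts were also bright enough to be tested: Dlx2 (chr2:71546755-71547004, minus strand), Edn1 (chr13:42301226-42301475, plus strand), Ednrb (chr14:103843702-103843951, minus strand) and Prrx1 (chr1:163313651-163313900, minus strand). Each is the 250 bases before the start, 5′ to 3′ on the strand of the gene, with TAAT on either strand, or the longer TAATTA, in capitals.
Dlx2: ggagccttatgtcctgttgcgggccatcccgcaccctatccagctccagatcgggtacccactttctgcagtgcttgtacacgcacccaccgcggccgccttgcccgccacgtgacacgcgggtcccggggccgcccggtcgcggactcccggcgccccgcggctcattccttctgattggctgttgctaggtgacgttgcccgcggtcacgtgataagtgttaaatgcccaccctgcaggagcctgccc
Edn1: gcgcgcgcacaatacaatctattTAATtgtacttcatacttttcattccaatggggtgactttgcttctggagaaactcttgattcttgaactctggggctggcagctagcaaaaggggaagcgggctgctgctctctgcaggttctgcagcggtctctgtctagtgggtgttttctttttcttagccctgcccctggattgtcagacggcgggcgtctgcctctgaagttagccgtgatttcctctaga
Ednrb: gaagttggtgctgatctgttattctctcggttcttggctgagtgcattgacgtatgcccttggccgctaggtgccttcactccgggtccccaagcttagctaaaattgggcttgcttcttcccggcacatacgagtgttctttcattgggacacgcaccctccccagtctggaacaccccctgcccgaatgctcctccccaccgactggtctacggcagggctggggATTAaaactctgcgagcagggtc
Prrx1: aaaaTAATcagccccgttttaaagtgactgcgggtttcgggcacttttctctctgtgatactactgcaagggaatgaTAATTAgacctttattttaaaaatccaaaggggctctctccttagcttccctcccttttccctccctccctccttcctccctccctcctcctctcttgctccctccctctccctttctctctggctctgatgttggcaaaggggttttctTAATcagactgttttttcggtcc
Prrx1 held 4 TAAT matches on either strand. One of them began 173 bases before the start as part of TAATTA, a palindrome that also supplies the overlapping match on the other strand. Edn1 held 1 match, 227 bases before the start, and Ednrb held 1, 23 bases before the start on the other strand. Dlx2 held 0, as did Dlx1 and Ednra, which are not printed. Over all 32851 promoters in the table, 54.9% held TAAT and 4.84% held TAATTA in these 250 bases, so a TAAT match is common. A match is a stretch of letters and does not show that a factor binds there.

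The deposited signals are linear, in arbitrary units, with the same trimmed mean on every array. Array medians ran from 21.0 to 25.6, and log2 signals of any pair of arrays had a correlation of 0.952 to 0.959. The Tcof1 signal checked the labels: on its brightest probe set (1424643_at) it was 382, 393 and 387 in wild-type embryos and 222, 179 and 231 in heterozygotes, and all heterozygotes lay below all wild types. The level taken as background was the highest signal among bacterial control probe sets, which was 8.55 to 13.5 per array. With 3 embryos per genotype, the number of arrays limits the precision of every comparison. Values for a gene are compared between embryos and not between genes, since probe sets differ in brightness for reasons other than transcript number.

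No arch gene with a testable signal passed the test between genotypes. In limma, at a Benjamini-Hochberg adjusted p under 0.05 over all probe sets, 0 of the 12 member probe sets bright enough to be tested passed, where 22 of 27022 tested probe sets (0.0814%) did, 0.0777% higher and 0.00370% lower in heterozygotes. Without the filter on dim probe sets 0 of the 16 passed, where 0.0466% of all probe sets did. The members' adjusted p ran from 0.700 to 0.999. At an unadjusted p under 0.05, 1 of 12 passed, where 6.22% of all tested probe sets did. The 12 probe sets stood for 6 genes, Dlx2, Dlx5, Edn1, Ednrb, Alx1 and Prrx1. Over the 12 probe sets the median log2 difference, heterozygote minus wild type, was 0.10, against 0.005 over all tested probe sets. There were 7 positive and 5 negative differences, the latter counting the brightest Prrx1 probe set, which rounded to 0.00. On the brightest probe set of each of the 6 genes the median was 0.05, with 3 positive and 3 negative. The median size of the difference over the 12 probe sets was 0.13, against 0.14 over all tested probe sets. In whole embryos, fewer cells of a type and less RNA per cell cannot be told apart.

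**Figure D1:**
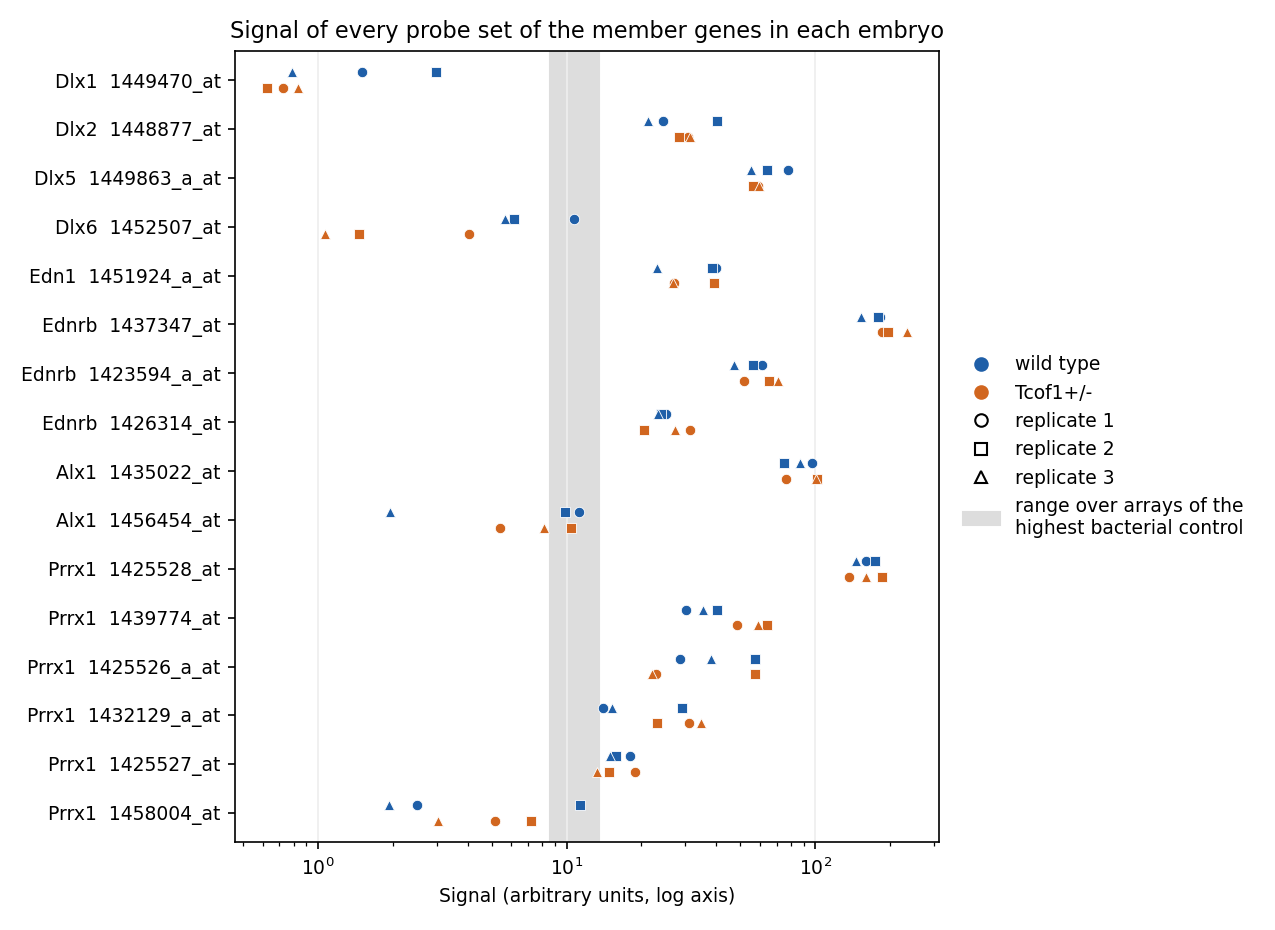
Signal in arbitrary units (log axis) of the 16 member probe sets in each embryo, wild type in blue and Tcof1+/- in orange, with a marker shape per replicate; the grey band spans the highest bacterial control signal over the arrays, 8.55 to 13.5. Dlx1, Dlx6 and the dimmest probe sets of Alx1 and Prrx1 sit in or below the band, and the genotypes separate on 1 Ednrb and 1 Prrx1 probe set among those above it.

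Dlx5, which marks the lower part of the arch, was above background in all 6 embryos. Arrays of whole embryos do not show which tissue that signal came from. The Dlx5 signal (1449863_a_at) was 77.3, 63.7 and 55.2 in wild-type embryos 1, 2 and 3 and 59.0, 56.3 and 59.1 in heterozygous embryos 1, 2 and 3. The heterozygotes lay close together inside the wild-type range, and their mean was 88.9% of the wild-type mean. The means were 65.4 ± 11.1 and 58.2 ± 1.58 (SD, n = 3 per genotype). On the scale of log2(signal + 1.87) the difference was -0.15 (SE 0.18, limma adjusted p = 0.906), with a 95% interval from -0.56 to 0.26. That interval spans 0.68 to 1.20 times the wild-type level.

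Dlx2, expressed along the whole arch and also in migrating crest, was at 24.5, 40.3 and 21.2 in wild types and 30.7, 28.2 and 31.4 in heterozygotes (1448877_at). As with Dlx5, the heterozygotes fell within the wild-type range and varied less than the wild types, with SDs of 1.71 and 10.2. The SD was also smaller in heterozygotes for Edn1, but larger on the brightest probe sets of Ednrb, Alx1 and Prrx1. The difference in spread was not tested. The log2 difference was 0.11 (SE 0.29, limma adjusted p = 0.955), with a 95% interval from -0.53 to 0.76, or 0.69 to 1.69 times the wild-type level.

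Dlx1 and Dlx6, each the neighbour and partner of a gene above, gave signals below the bacterial controls in every embryo. Dlx6 (1452507_at) was at 10.7, 6.14 and 5.63 in wild types and 4.04, 1.47 and 1.07 in heterozygotes. All 3 heterozygotes were below all 3 wild types, but every value was under the highest control of its own array, so no fold is given. Without the filter on dim probe sets Dlx6 could be tested, and its limma adjusted p was 0.836. Dlx1 (1449470_at) gave 1.50, 2.98 and 0.787 in wild types and 0.726, 0.626 and 0.836 in heterozygotes, with the genotypes overlapping. These signals do not show that the transcripts are absent, only that these probe sets did not measure them above background in whole embryos.

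Edn1, the ligand, was dim but above the controls in all 6 embryos. Its signal (1451924_a_at) was 39.7, 38.5 and 23.0 in wild types and 27.0, 39.3 and 26.8 in heterozygotes. High and low embryos occurred in both genotypes, and the means of 33.7 ± 9.34 and 31.1 ± 7.17 (SD, n = 3 per genotype) differed by less than either SD. The log2 difference was -0.10 (SE 0.29, limma adjusted p = 0.964), with a 95% interval from -0.75 to 0.56, which spans 0.60 to 1.47 times the wild-type level. The interval takes in differences in either direction for the ligand, and its bounds are not the limits of what the test could detect.

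Ednrb, the type B receptor gene, was measured by 3 probe sets, all above background in all embryos and all with a positive difference that did not pass. On the brightest (1437347_at) it was at 182, 178 and 153 in wild types and 185, 196 and 233 in heterozygotes. The 3 heterozygotes lay above the 3 wild types, though the nearest pair, 182 and 185, almost met. The means were 171 ± 15.8 and 204 ± 25.2 (SD, n = 3 per genotype), a log2 difference of 0.25 (SE 0.13, limma adjusted p = 0.818, 95% interval -0.05 to 0.55). The middle probe set (1423594_a_at) gave 60.9, 55.9 and 47.2 against 51.6, 65.1 and 70.6, a log2 difference of 0.18 (SE 0.20). The dimmest (1426314_at) gave 25.1, 23.9 and 23.3 against 31.2, 20.5 and 27.4, a log2 difference of 0.10 (SE 0.27). On both of these the genotypes overlapped.

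Alx1, a regulator of the frontonasal mesenchyme, overlapped between genotypes. Its brighter probe set (1435022_at) was at 96.6, 75.1 and 86.9 in wild types and 76.2, 102 and 101 in heterozygotes. The heterozygotes at 102 and 101 lay above every wild type, and the one at 76.2 lay inside the wild-type range. Means of 86.2 ± 10.7 and 93.0 ± 14.6 (SD, n = 3 per genotype) gave a log2 difference of 0.10 (SE 0.18, limma adjusted p = 0.932, 95% interval -0.29 to 0.49). The other probe set (1456454_at) was above its array's controls in 1 embryo of 6, at 1.95 to 11.2 in all, and was too dim to be tested.

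Prrx1, a gene of head and limb mesenchyme, gave different answers on different probe sets. The brightest (1425528_at) was at 160.1, 173 and 146 in wild types and 136, 186 and 160.3 in heterozygotes. The genotypes overlapped, and the log2 difference rounded to 0.00 (SE 0.15, limma adjusted p = 0.999, 95% interval -0.33 to 0.33), the narrowest but 1 of the intervals for these genes. A dimmer probe set (1439774_at) was at 30.2, 40.4 and 35.4 in wild types and 48.3, 64.1 and 58.7 in heterozygotes. Here every heterozygote lay above every wild type, and the means of 35.3 ± 5.09 and 57.0 ± 8.03 (SD, n = 3 per genotype) differed by 0.66 on the log2 scale (SE 0.21, 95% interval 0.19 to 1.14). It was the single member probe set with an unadjusted p under 0.05 (0.0114), and it did not pass over all probe sets (limma adjusted p = 0.700).

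The other Prrx1 probe sets did not follow it as a group. Probe set 1432129_a_at gave 14.0, 29.2 and 15.2 in wild types and 31.0, 23.1 and 34.7 in heterozygotes, a log2 difference of 0.61 (SE 0.34). Probe set 1425526_a_at gave 28.5, 57.2 and 38.0 against 22.8, 57.0 and 22.1, a log2 difference of -0.34 (SE 0.39). Both overlapped between genotypes and had adjusted p of 0.824 and 0.901. On 1425527_at the signal was 13.2 to 18.9 in all embryos and the log2 difference was -0.06 (SE 0.34). The sixth (1458004_at), at 1.93 to 11.3, was never above the controls and was not tested. Where each probe set lies on the Prrx1 transcripts was not analysed here.

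Counted over the 12 tested probe sets, the genotypes did not overlap on 2 (1437347_at of Ednrb and 1439774_at of Prrx1), where they did not overlap on 12.2% of all tested probe sets. Both members were higher in heterozygotes, and over all tested probe sets 1620 separated in that direction and 1669 in the other.

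**Figure D2:**
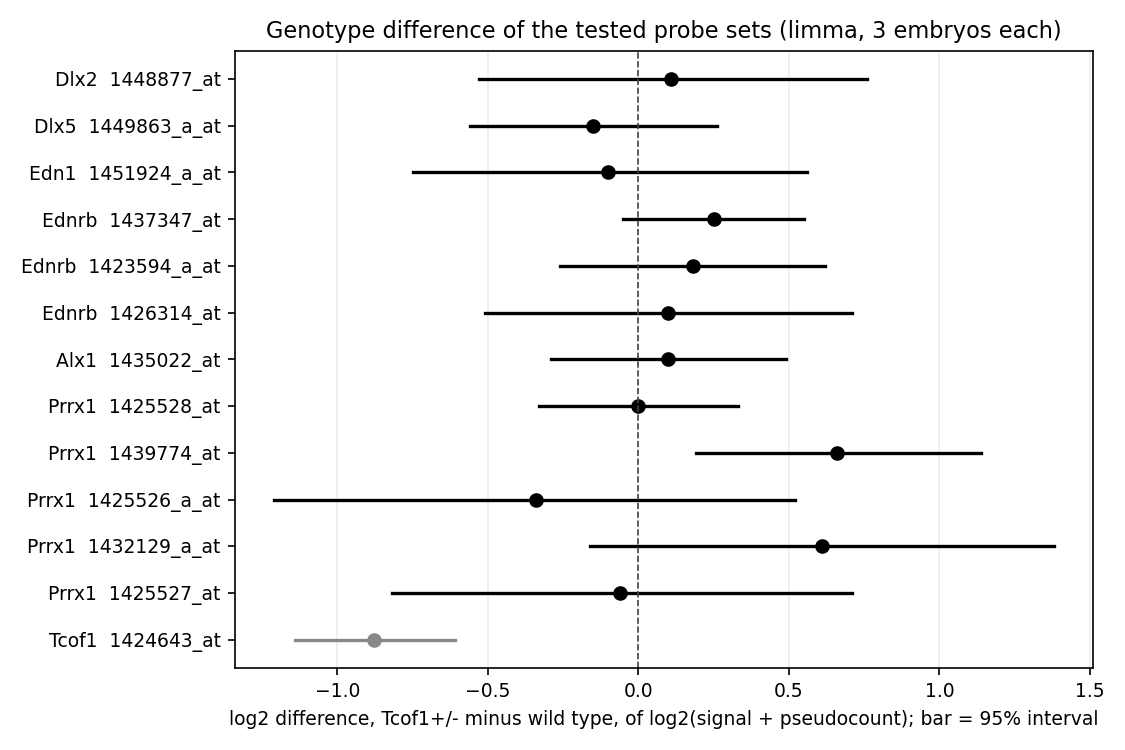
Log2 difference, Tcof1+/- minus wild type, with its 95% interval from limma, for the 12 tested member probe sets (black) and for Tcof1 (grey). The interval of 1439774_at of Prrx1 (0.19 to 1.14) is the single member interval that leaves out 0, and that of Tcof1 runs from -1.14 to -0.61.

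Precision differed between the genes. Over the 12 probe sets the median half-width of the 95% interval was 0.54 on the log2 scale, against 0.43 over all tested probe sets. On the brightest probe set of each of the 6 genes, the intervals together spanned 0.60 to 1.69 times the wild-type level. A change larger than that on these probe sets would lie outside all of the intervals, and a smaller one could have been missed. The bounds are not the limits at which the adjusted test passes. The interval of 1439774_at of Prrx1 left out 0, and that probe set did not pass.

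The arrays were scanned on 2 days, replicates 1 and 2 of both genotypes on the first and replicate 3 of both on the second. Of the 12 probe sets, 7 differed in the same direction on both days and 5 in opposite directions. Dlx5 differed by -0.28 on the first day and 0.10 on the second, Edn1 by -0.25 and 0.21, and Dlx2 by -0.09 and 0.53. The brightest Ednrb probe set differed by 0.08 and 0.60, so most of its pooled difference came from the day with 1 embryo of each genotype. Probe set 1439774_at of Prrx1 differed by 0.64 and 0.70. Wild-type embryo 3, scanned on the second day, was the lowest of the 6 embryos on the brightest probe set of 4 of the 6 genes (Dlx2, Dlx5, Edn1 and Ednrb) and the highest on none.

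**Figure D3:**
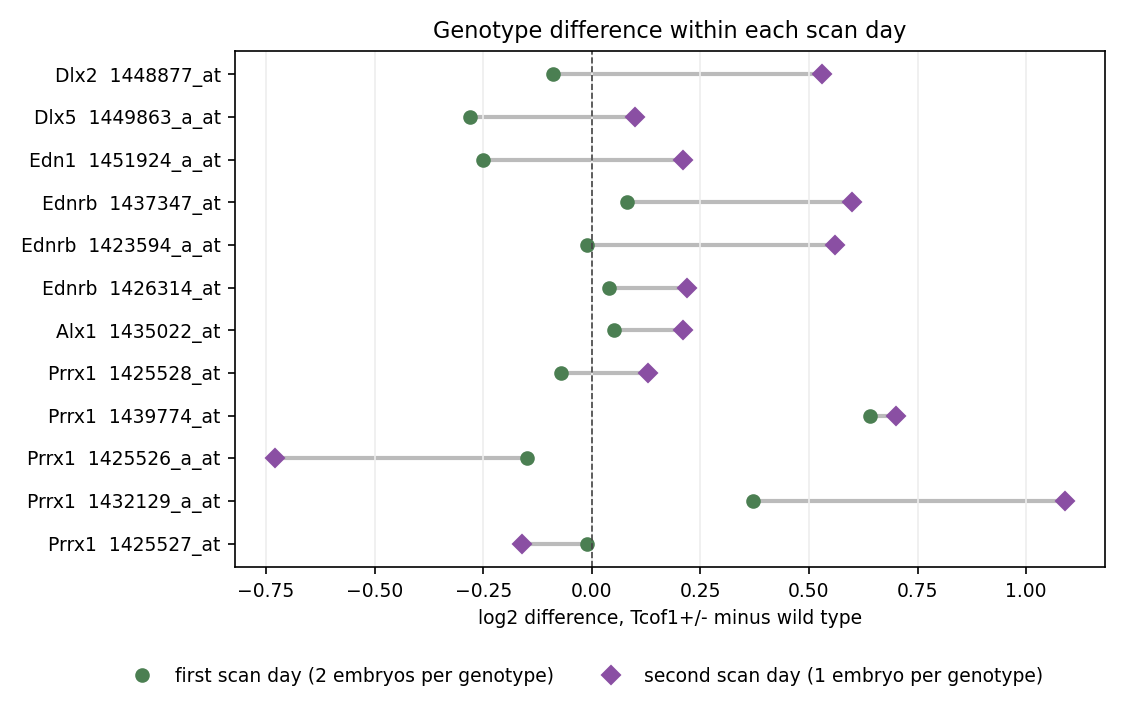
Log2 difference, Tcof1+/- minus wild type, of the 12 tested member probe sets within the first scan day (circles, 2 embryos per genotype) and the second (diamonds, 1 embryo per genotype). Dlx2, Dlx5 and Edn1 lie on opposite sides of 0 on the 2 days, and 1439774_at of Prrx1 lies at 0.64 and 0.70.

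Other genes of the endothelin pathway were taken from a list of 12: the ligands Edn2 and Edn3, the converting enzymes that cut the ligand to its active form, and the G proteins, phospholipases and Mef2c downstream of the receptors. All 12 were tested, 0 passed in either direction in limma, and 1 had an unadjusted p under 0.05. Over all tested probe sets 0.0814% passed and 6.22% had an unadjusted p under 0.05, so 1 of 12 is near that share. There were 7 positive and 5 negative differences with a median of 0.00. Gna11, a G protein subunit that couples the receptors to phospholipase C, had the smallest p. It was at 583, 664 and 577 in wild types and 507, 461 and 548 in heterozygotes. All heterozygotes lay below all wild types, with a log2 difference of -0.27 (SE 0.10, adjusted p = 0.771). The converting enzyme gene Ece2 differed by -0.17 (SE 0.09, adjusted p = 0.823), also without overlap, at 376 to 414 in wild types and 335 to 357 in heterozygotes. Plcb4, the phospholipase that acts downstream of the type A receptor in the lower jaw, differed by 0.26 (SE 0.14, adjusted p = 0.824). Mef2c, a transcription factor gene that the pathway uses in crest cells, differed by 0.09 (SE 0.09, adjusted p = 0.889).

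Arch patterning factors formed a list of 38 genes, of which 33 had a probe set and 28 were tested. Again 0 passed in either direction in limma, where 0.0814% of all tested probe sets did, and 4 of 28 had an unadjusted p under 0.05, where 6.22% did. The median difference was -0.02, with 13 above 0 and 15 below. Jag1, a Notch ligand gene of the upper arch, was at 261, 249 and 242 in wild types and 352, 307 and 327 in heterozygotes. The genotypes were well apart, by 0.39 on the log2 scale (SE 0.10), yet the adjusted p over all probe sets was 0.584. Foxc1, a forkhead gene of head mesenchyme, was at 278, 244 and 295 against 185, 231 and 193, a log2 difference of -0.42 (SE 0.13, adjusted p = 0.673), also without overlap.

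Fgf15 (0.33, SE 0.13), Foxf1 (0.25, SE 0.12), Msx2 (-0.25, SE 0.12) and Pou3f3 (-0.74, SE 0.32) completed the 6 arch factors with the smallest p, with adjusted p from 0.781 to 0.810. Pou3f3, a POU factor gene of the upper arch that is also expressed in neural tissue, was at 71.9, 81.6 and 57.7 in wild types and 30.7, 31.0 and 71.6 in heterozygotes. Heterozygous embryo 3 was thus inside the wild-type range while the others were below every wild type. Hand2, the target of endothelin and Dlx5 and Dlx6 in the lower arch, was picked out for that role after its values were seen. Its signal was 449, 447 and 433 in wild types and 476, 514 and 426 in heterozygotes, a log2 difference of 0.09 (SE 0.10, adjusted p = 0.901, 95% interval -0.13 to 0.30). The 5 arch factors too dim to be tested were Dlx3, Gsc, Nkx3-2, Alx4 and Lhx8, and Gsc was below the controls in every embryo.

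**Figure D4:**
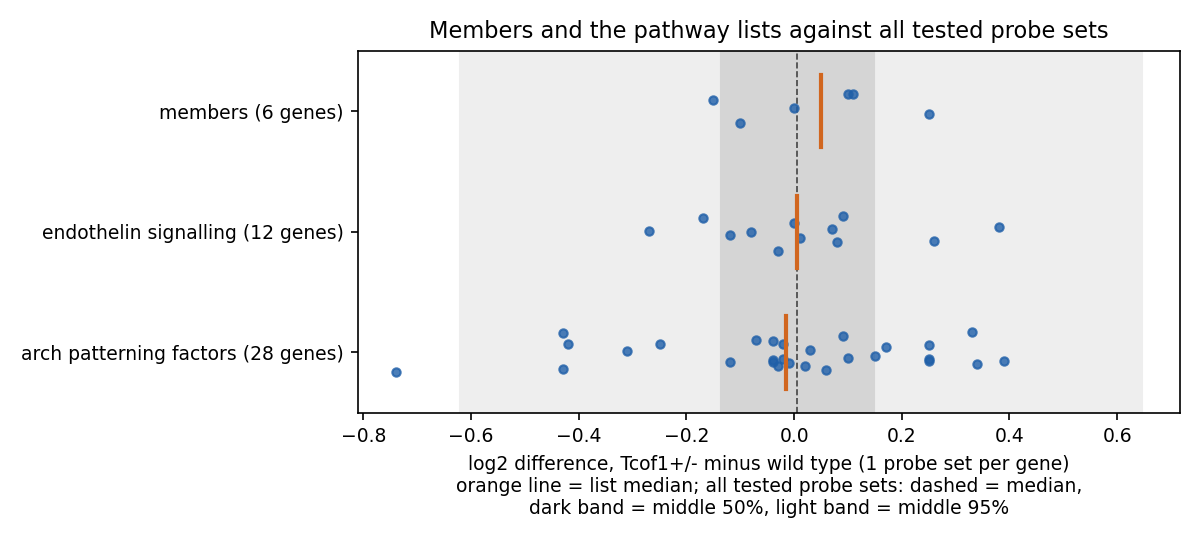
Log2 difference, Tcof1+/- minus wild type, of each tested gene of the member list (6 genes), the endothelin list (12) and the arch factor list (28), 1 probe set per gene, with list medians in orange; bands show the middle 50% and 95% of all tested probe sets. The list medians lie at 0.05, 0.00 and -0.02, and Pou3f3 at -0.74 is the gene farthest to the left.

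The 5 genes whose signal followed the members' mean profile most closely over the 6 embryos were Nf2 (Pearson r = 0.991), Srp68 (0.984), Thnsl1 (0.982), Cyb561a3 (0.977) and Spsb1 (0.977), out of 12851 genes compared. The mean profile was lowest in wild-type embryo 3, at -0.24 on the log2 scale, followed by heterozygous embryo 1 at -0.11, and lay between 0.06 and 0.10 in the other 4 embryos. With 6 arrays and so many genes, values this high are a description of these arrays and nothing more. Nf2, for example, was at 230.3, 233 and 199 in wild types and 212, 233 and 224 in heterozygotes.

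Markers of tissues in which these genes are expressed, and of other tissues of the embryo, were set beside them. Neural crest markers, 13 of 14 with a probe set, all had a negative difference, with a median of -0.19 (-0.31 within day 1 of scanning, -0.05 within day 2). Their summed signal was 5034 to 5409.7 in wild types and 4046 to 4358 in heterozygotes, without overlap. Crabp1, whose product binds retinoic acid in cells of the crest and hindbrain, had means of 2356 ± 113 and 1724 ± 74.3 (SD, n = 3 per genotype) and made up a large part of that sum. Without it the sum over the other 12 was 2740.3 to 3097 and 2395 to 2635. In limma 0 of the 13 passed, where 0.0814% of all tested probe sets did, and 4 had an unadjusted p under 0.05, where 6.22% did: Crabp1, Tfap2b, Tfap2a and Sox10. Sox10, a transcription factor gene of migrating crest, differed by -1.13 on the first day and 0.13 on the second. On the brightest probe set of each member gene, Dlx2, Ednrb and Alx1 had a positive difference, Dlx5 and Edn1 a negative one, and Prrx1 a difference that rounded to 0.00. The difference between the crest list and the members was not tested, and the part that the crest markers' level has in the members' values was not tested.

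Surface ectoderm markers, from tissue that secretes Edn1, summed to 8327 to 8856 in wild types and 8438 to 10366 in heterozygotes. Endothelial markers summed to 1460.5 to 1821 and 1668 to 1699, and pharyngeal endoderm markers to 1855 to 1973 and 1991 to 2374. Ectoderm and endothelium sums overlapped between genotypes, and endoderm sums did not. Each of the 7 tested endoderm genes overlapped on its own, with 4 positive and 3 negative differences. Of these genes 0 had an unadjusted p under 0.05 in limma, where 6.22% of all tested probe sets did. Shh made up a large part of the endoderm sum, at 828 to 912 in wild types and 804 to 1171 in heterozygotes. Forebrain markers summed to 724 to 929.7 and 528 to 631, with 0 of 6 tested genes positive. In limma 0 of the 6 passed, where 0.0814% of all tested probe sets did. At an unadjusted p under 0.05 there were 3 of 6, where the share over all tested probe sets was 6.22%. Primitive erythroid markers were low in heterozygous embryo 1, with a sum of 306 against 5788 to 13641 in wild types and up to 11211 in the other heterozygotes. The globin genes Hbb-bh1, Hbb-y and Hba-x made up a large part of the wild-type sums. In heterozygous embryo 1 Gata1 was at 27.3 and Klf1 at 26.2, above the highest control of that array (10.7). RNA quality was read from the Gapdh control, whose 3 prime minus 5 prime log2 signal was 0.84 to 1.04 in wild types and 0.68 to 0.81 in heterozygotes, without overlap. The same measure of the Actb control overlapped, at 0.74 to 0.84 and 0.68 to 0.81. The part of each of these in the members' values was not tested.

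**Figure D5:**
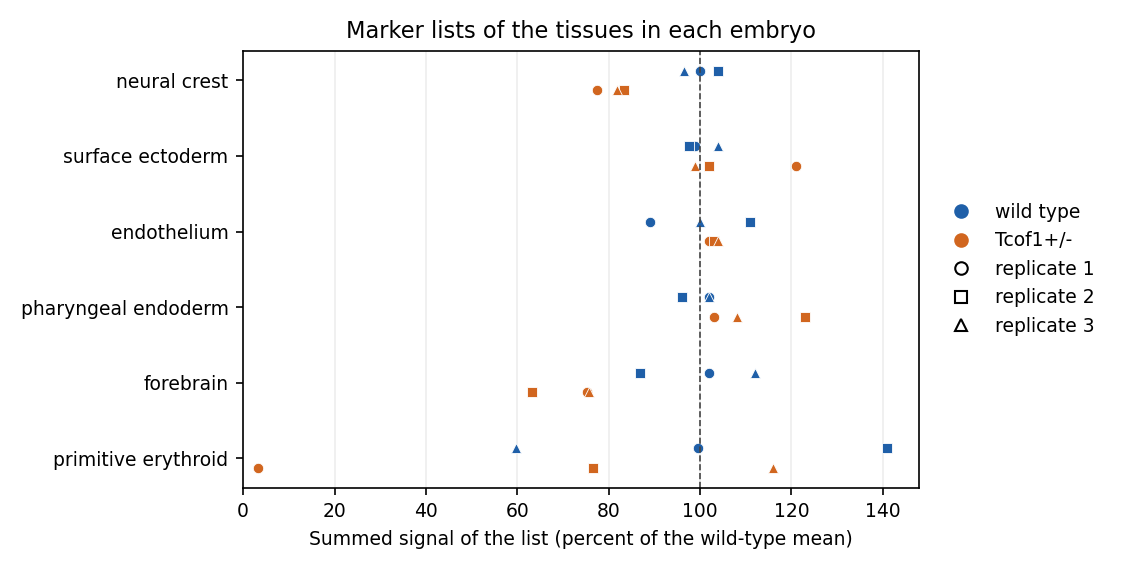
Summed signal of each tissue marker list as a percent of its wild-type mean (axis from 0), with 1 point per embryo, wild type in blue and Tcof1+/- in orange. Neural crest and forebrain sums lie lower in all 3 heterozygotes, and heterozygous embryo 1 stands at 3.16% for primitive erythroid genes. Pharyngeal endoderm sums lie higher, though of 7 tested endoderm genes 4 had a positive and 3 a negative difference.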

How the data were processed

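Total RNA (100 ng) of each embryo was amplified in a pair of labelling rounds, and 20 µg of cRNA was hybridised, per the labels' protocols and the design text. Values as the authors deposited them are linear intensity, 1 for each probe set on an array, from GCOS per the submitters' processing notes (version not given in the sources used here), and each array had a 2% trimmed mean of 150.0. Scan days were read per the file headers. No fluidics module held both genotypes, so module and genotype cannot be told apart.

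Of 45101 probe sets, 64 controls were left out. Values were taken as log2(signal + 1.87), where 1.87 is the 10th percentile. Probe sets in the lowest 40% by mean log2 value (signal below about 13.2) were left out, and 27022 were tested with limma 3.58.1 in R 4.3.3 (lmFit; eBayes with an intensity trend; genotype alone; two-sided; Benjamini-Hochberg at 0.05). Of the 16 member probe sets 12 passed the filter. The fit was also run on simulated data with known changes, and the outcome of that run is not given here. Symbols came from the platform annotation. Named genes were all members, Tcof1, the 4 endothelin and 6 arch factor genes with the smallest p on their brightest probe set, and the 5 genes most like the members. Members and lists were chosen with earlier results of these data known. The labels call the embryos biological replicates. Figures were drawn with matplotlib 3.10.9.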

Additional observations from a re-analysis of the deposited data

How the results depend on the processing

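The count of member probe sets that passed was 0 under all 16 alternatives run: pseudocounts of 1 and 7.03, quantile normalization, equal array medians, no filter, a filter at 60%, no intensity trend, array weights, replicate number or scan day as a block, and each embryo left out in turn. The same held for the endothelin and arch factor lists together. In the main fit 0.0814% of all tested probe sets passed, so a count of 0 was likely for so few probe sets. Without the intensity trend 0 of all probe sets passed, so that setting says nothing about the members. The filter at 60% left Dlx2, Edn1, 1426314_at of Ednrb and 1425526_a_at, 1432129_a_at and 1425527_at of Prrx1 out of the test. Over these alternatives and the separate scan days, the lowest limma adjusted p of a member was 0.565 (1439774_at of Prrx1), and 196 of 210 values kept their sign. On the first scan day alone Dlx2 differed by -0.09 and 1423594_a_at of Ednrb by -0.01. On the second Dlx5 differed by 0.10, Edn1 by 0.21 (against -0.10 over both days) and 1425528_at of Prrx1 by 0.13 (against 0.00). With an embryo left out the ranges were -0.06 to 0.37 for Dlx2, -0.34 to 0.04 for Edn1, -0.02 to 0.26 for 1426314_at of Ednrb, -0.11 to 0.11 for 1425528_at and -0.19 to 0.04 for 1425527_at of Prrx1. Why these signs changed was not tested.

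Tcof1 differed by -0.88 (limma adjusted p = 0.0352) and no longer passed without the intensity trend (-0.88, adjusted p = 0.413), with scan day as a block (-0.88, 0.0906), or with any embryo left out (-0.95 to -0.77, adjusted p from 0.0586 to 0.190). The count over all probe sets, 22, became 0 without the intensity trend, 14 with scan day as a block and 8 to 20 with an embryo left out: it was 8 when wild-type embryo 1 was left out, 11 when either of the other wild types was, and 12 when heterozygous embryo 2 was. Same-numbered embryos did not deviate together (correlations of -0.079, -0.105 and -0.024), so the numbers were not taken to pair the embryos, though replicate 3 of both genotypes shared a scan day. The replicate block gave 10 calls, a Tcof1 difference of -0.88 (adjusted p = 0.182) and 0 member calls. Signal near background limits Dlx1, Dlx6 and the dimmest probe sets of Alx1 and Prrx1, for which no fold can be given.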

Other observations

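Other transcripts of the Dlx loci were looked at after the members' values were known. Dlx3, whose product acts in the distal part of the arch and in surface ectoderm, gave opposite differences on its probe sets, and neither was bright enough to be tested. On 1422037_at the signal was 15.6, 2.41 and 6.46 in wild types and 15.9, 23.3 and 19.0 in heterozygotes, so the heterozygotes lay above the wild types, though the nearest pair, 15.6 and 15.9, almost met. On 1450475_at the means were 14.1 ± 11.9 and 10.2 ± 4.97 (SD, n = 3 per genotype), with overlap. Dlx4 was tested on 1420595_at, at 17.2 to 25.3 in wild types and 20.9 to 27.7 in heterozygotes, and differed by 0.10 on the log2 scale (SE 0.30, limma adjusted p = 0.962). The antisense and long noncoding transcripts Dlx6os1 and Dlx6os2 of the Dlx5 and Dlx6 locus stayed below the bacterial controls in all embryos, at 0.932 to 9.80 and 1.64 to 4.01. Dlx1as exceeded them in 1 of 6 embryos, heterozygous embryo 3, at 13.6.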
